A study of Homo sapiens with 6 samples.

Results

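The genes described here make up the sterol and fatty acid branch of the SREBP system in HT-1080, a cell line established from a human fibrosarcoma. They were chosen by name, from a list of 35 gene symbols. Of these, 34 had a row among the 22925 genes of the deposited table, each matched by the table's own symbol, and the other, ACACA, was not analysed here. Poly(A) RNA was sequenced from 3 libraries of cells kept for 48 h in 20 μM PhenDC3 with 1% DMSO, and from 3 libraries of cells kept for 48 h in 1% DMSO alone. The ligand PhenDC3 holds G quadruplexes in their folded form, which are stacks of guanines that G-rich strands of DNA or RNA can form. Both groups carried the solvent and were grown in serum-containing medium. All libraries come from 1 cell line. The labels do not say whether replicates were separate cultures, so the p-values rest on a spread between libraries that could be purely technical. The question here was how far the transcripts of each step of lipid synthesis differ in abundance between treated and control cells.

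SREBPs are transcription factors that are made as membrane proteins of the endoplasmic reticulum. When membrane sterol is low, the escort protein SCAP carries them to the Golgi, where proteases free the active fragment. When sterol is plentiful, INSIG proteins hold SCAP back. SREBP-2, from SREBF2, acts mainly on sterol genes, and SREBP-1, from SREBF1, mainly on fatty acid genes. Their target enzymes build cholesterol from acetyl-CoA in a mevalonate stage and a stage after squalene, and build and desaturate fatty acids.

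Levels are given as normalized counts, meaning reads over a size factor that the authors set per library. Each log2 fold change was taken after 1 was added to the normalized count, and comes from limma, with p-values adjusted over all 16482 genes tested. Recovered whole reads came to between 12574952 and 14292987 per DMSO library and between 7371056 and 9386691 per PhenDC3 library. The mitochondrial genome took 3.72% to 3.96% of reads in DMSO and 15.4% to 15.5% in PhenDC3. Every member passed the filter on low values, and the fewest reads behind any value were 21, for PMVK in PhenDC3 replicate 2. Within groups the libraries differed beyond sampling noise (chi-square per degree of freedom 1.45 to 7.75), and the values above 7 all involved DMSO replicate 3. Of 6 mesenchymal markers fixed for the line, VIM, FN1 and SPARC were abundant and COL1A2 and THY1 were nearly absent, at under 10 normalized counts in every library. The summed level of these 6, most of it VIM, was 42444 to 46541 in DMSO and 27791 to 28346 in PhenDC3, while COL1A1 rose (log2 0.62, limma adjusted p = 0.00297). For 3 of 5 epithelial markers it was 2278 to 2801 and 2428 to 2676. Among these, only KRT8 passed, as higher, though its groups overlapped (log2 0.20, limma adjusted p = 0.0339). CD68, the 1 leukocyte marker of 5 with a row, was at 4.64 to 7.78 in DMSO and 7.87 to 19.4 in PhenDC3 (log2 1.16, limma adjusted p = 0.0132). Markers of lipid-handling cell types were near the floor. The summed level was 6.23 to 10.1 in DMSO and 3.94 to 4.73 in PhenDC3 for 3 of 5 adipocyte markers, and 6.90 to 13.1 and 2.62 to 4.47 for 2 of 5 hepatocyte markers. For the 4 steroidogenic markers it was 1.56 to 3.87 in DMSO and 7.87 to 10.7 in PhenDC3, with STAR at 0 in every DMSO library. SERPINA1, a hepatocyte marker, passed as lower from a level near the floor (log2 -1.45, limma adjusted p = 0.00746). The part of the marker genes in the results below was not tested.

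Of the 34 genes, 33 passed the test, against 59.6% of all genes tested. With PhenDC3, 31 were lower and 2 higher (SREBF1 and TM7SF2), and MYLIP did not pass. Among all genes tested, 30.4% were lower and 29.2% higher at the same threshold. The share called was larger among better expressed genes. In a fit limited to genes with a mean of 50 or more, which kept all 34 members, 7911 of 11315 were called. In those 31 genes each PhenDC3 library lay below each DMSO library, a pattern found in 32.6% of all tested genes. The median log2 fold change of the members was -0.94, against -0.02 for all tested genes, whose quartiles were -0.42 and 0.43. A fall of 1 or more on the log2 scale that also passed the test was reached by 14 members, against 6.46% of tested genes. The size of the fall differed by step. The median was -1.68 for the mevalonate stage, -0.99 after squalene, -0.61 for fatty acid synthesis, and -0.48 for the SREBP factors and their sensors. In bulk RNA, less RNA per cell and fewer cells that express a gene cannot be told apart.

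**Figure D1:**
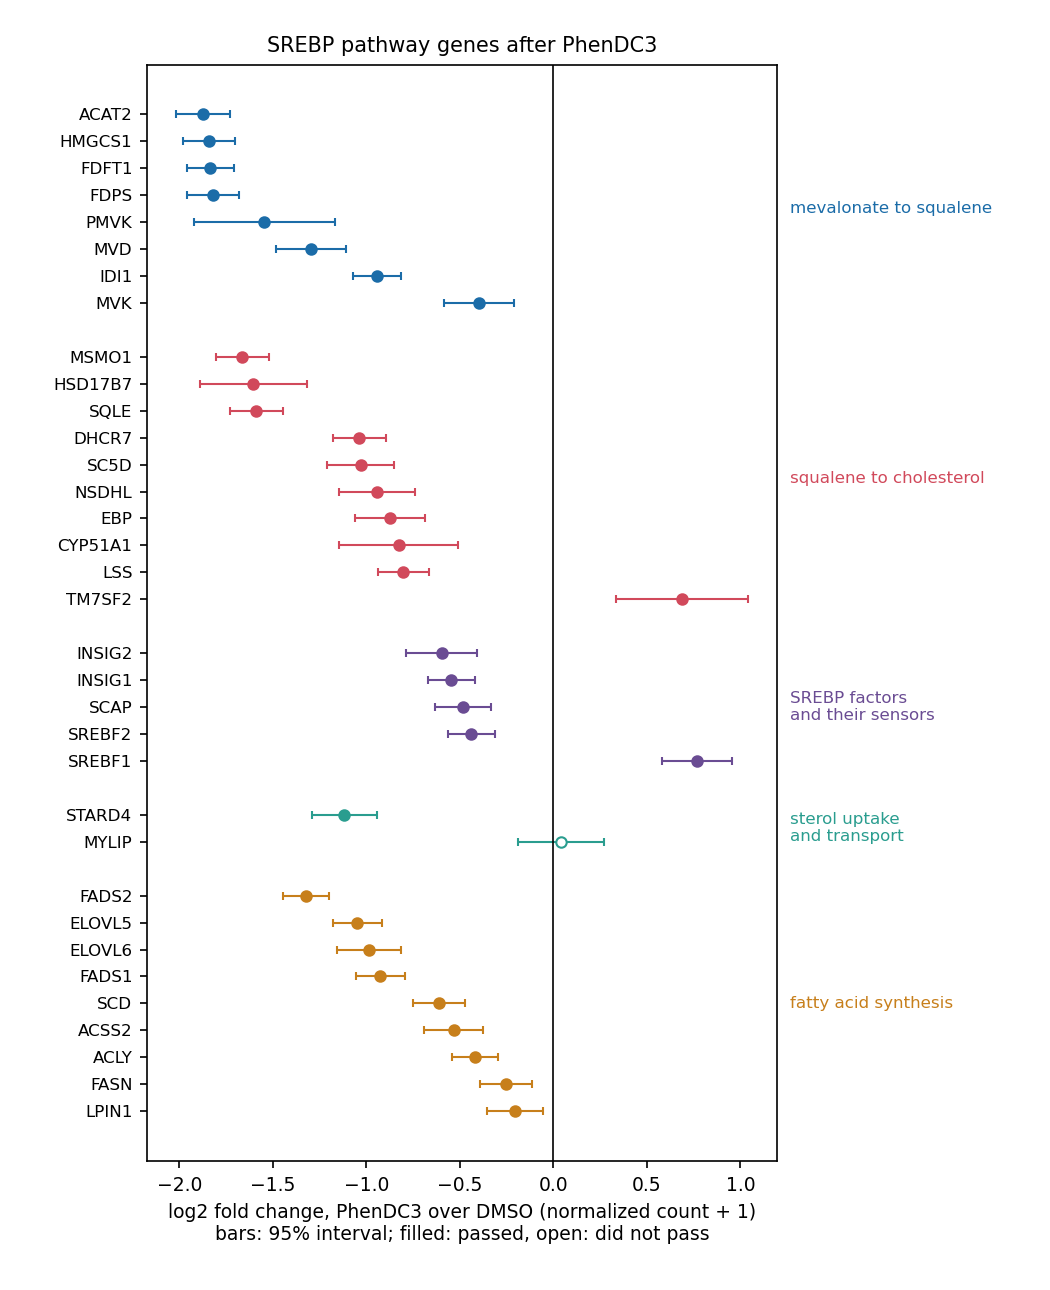
Log2 fold change of each of the 34 genes, PhenDC3 over DMSO, on the horizontal axis, with its 95% interval from limma. Filled points passed at an adjusted p under 0.05 and the open point, MYLIP, did not. ACAT2, HMGCS1, FDFT1 and FDPS of the mevalonate stage lie farthest to the left, at -1.88 to -1.82, and only TM7SF2 and SREBF1 lie to the right of 0 with a call.

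**Figure D2:**
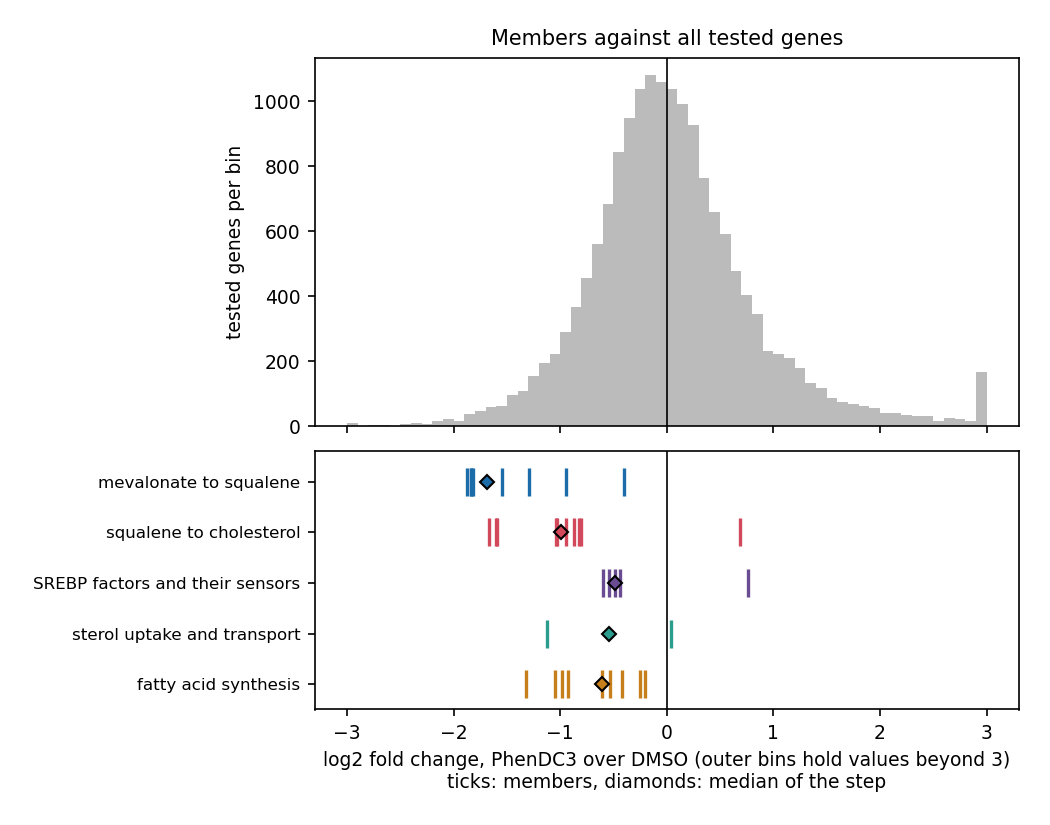
The upper panel counts all 16482 tested genes by log2 fold change in bins, and the lower panel marks each member by a tick and the median of each step by a diamond. The median of the mevalonate stage, -1.68, sits in the left tail, while the whole distribution is centred near -0.02.

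The promoters of the genes on which these results turn are shown because SREBPs act through short elements near the start site, often beside NF-Y and Sp1 boxes. RefSeq promoter windows (build GRCh38.p14, 250 bases before to 50 after the start) matched 30 of the 34 genes, with 41 windows, some of which overlap. Below are the 250 bases before the start for the 3 genes with the deepest falls that have a window (HMGCS1, FDPS and MSMO1), for both SREBP genes, and for TM7SF2. Each is written 5′ to 3′ in lower case. Capitals mark the classical sterol regulatory element of SREBPs, a run of 10 letters in the SREBF2 line, and the NF-Y box CCAAT, which reads ATTGG on the opposite strand. They lie at chr5:43313413-43313662 (minus strand) for HMGCS1, chr1:155308616-155308865 (plus strand) for FDPS, chr4:165327419-165327668 (plus strand) for MSMO1, chr22:41832855-41833104 (plus strand) for SREBF2, chr17:17836987-17837236 (minus strand) for SREBF1 and chr11:65111622-65111871 (plus strand) for TM7SF2.
HMGCS1: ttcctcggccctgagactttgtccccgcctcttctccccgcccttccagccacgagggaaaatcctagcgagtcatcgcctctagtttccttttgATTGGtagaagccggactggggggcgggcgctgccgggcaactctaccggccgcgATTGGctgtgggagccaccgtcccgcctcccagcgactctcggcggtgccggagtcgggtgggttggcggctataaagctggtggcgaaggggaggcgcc
FDPS: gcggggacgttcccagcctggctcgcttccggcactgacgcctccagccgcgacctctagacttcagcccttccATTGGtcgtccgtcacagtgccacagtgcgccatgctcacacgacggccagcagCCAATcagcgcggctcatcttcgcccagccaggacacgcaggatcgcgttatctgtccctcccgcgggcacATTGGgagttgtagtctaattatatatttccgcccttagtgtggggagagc
MSMO1: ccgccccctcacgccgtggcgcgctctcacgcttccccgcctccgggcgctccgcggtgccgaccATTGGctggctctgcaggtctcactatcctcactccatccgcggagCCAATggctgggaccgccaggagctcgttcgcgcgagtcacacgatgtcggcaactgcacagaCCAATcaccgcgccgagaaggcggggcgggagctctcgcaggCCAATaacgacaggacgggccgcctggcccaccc
SREBF2: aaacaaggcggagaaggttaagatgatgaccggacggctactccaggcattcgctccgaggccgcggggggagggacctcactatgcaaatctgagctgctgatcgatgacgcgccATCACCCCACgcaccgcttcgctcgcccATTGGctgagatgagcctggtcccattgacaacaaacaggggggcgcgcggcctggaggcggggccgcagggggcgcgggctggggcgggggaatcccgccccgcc
SREBF1: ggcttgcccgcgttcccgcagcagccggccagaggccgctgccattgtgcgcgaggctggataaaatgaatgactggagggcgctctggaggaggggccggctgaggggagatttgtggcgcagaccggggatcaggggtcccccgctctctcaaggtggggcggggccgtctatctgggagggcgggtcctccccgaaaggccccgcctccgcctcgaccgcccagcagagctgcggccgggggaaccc
TM7SF2: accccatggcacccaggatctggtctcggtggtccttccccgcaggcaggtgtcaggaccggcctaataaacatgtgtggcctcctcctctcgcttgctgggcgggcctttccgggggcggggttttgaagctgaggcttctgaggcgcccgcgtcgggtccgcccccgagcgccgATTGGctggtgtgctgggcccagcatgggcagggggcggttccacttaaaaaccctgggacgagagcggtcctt

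The classical sterol regulatory element, searched as those exact letters on both strands, occurred in 1 member, SREBF2, at positions -134 to -125 from the start site at 0. Over all 35116 promoter windows they occurred in 16 (0.0456%). The looser TCACNCCAC, whose match lies within those letters, was found in the same gene alone, and in 1.13% of all windows. CCAAT stood in 25 of the 41 member windows (61.0%), against 34.6% of all windows and 34.7% of windows of protein-coding genes. The Sp1 box GGGCGG stood in 36 (87.8%), against 45.0% and 56.3%, and the E-box CACGTG in 6 (14.6%), against 7.26% and 8.34%. All windows include those of genes not tested here, and some genes have several. Counted by gene, CCAAT was held by 22 of 30 members, against 4437 of the 10290 tested genes with a window. The Sp1 box was held by 28 members, against 7818 of those genes, and the E-box by 5, against 1287. SREBF1, which rose, had neither searched form of the sterol element nor a CCAAT in this window. TM7SF2, which also rose, had a CCAAT at -74 to -70, as HMGCS1 had at -155 and -100. Of the 8 members without a CCAAT, SREBF1 was the only one that rose, and the others were all lower, down to PMVK (-1.55). The median log2 fold change was -0.71 in those 8 and -0.94 in the 22 with a CCAAT, a difference that was not tested. No other window of SREBF1 was searched, so elements at any other start of that gene would be missed. These matches describe letters, not binding, and sterol elements spelled in other letters would be missed.

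A sequence pattern that can form a G quadruplex (at least 3 G in a row, 4 times over, each run 1 to 7 bases from the next, on either strand) was found in 16 of the 41 windows (39.0%), against 8778 of all 35116 windows and 30.4% of protein-coding windows. By gene, 15 members held it and 15 did not. The median log2 fold change was -0.53 in those with the pattern, and its holders ranged from STARD4 (-1.12), DHCR7 (-1.04) and SC5D (-1.03) to TM7SF2 (0.69). It was -1.05 in those without, which ranged from HMGCS1 (-1.84) to SREBF1 (0.77). Among all 10290 tested genes with a window, 4248 held the pattern, and the medians were 0.01 with it and -0.05 without. The pattern was not spread evenly over the steps. In the mevalonate stage MVK held it, while HMGCS1, FDPS, PMVK, MVD and IDI1 did not. The size of the fall also differed by step, and the part of step in these medians was not tested. No test was made of the difference between the medians.

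In the mevalonate stage, from acetyl-CoA to squalene, 8 of 8 genes were lower, by -0.40 to -1.88 on the log2 scale, and their summed level dropped from 13458 to 13827 normalized counts in the DMSO libraries to 4637 to 4658 with PhenDC3. ACAT2 encodes the cytosolic thiolase that joins acetyl-CoA units. It was at 1623, 1680 and 1707 normalized counts in DMSO and at 441, 444 and 479 in PhenDC3, a log2 fold change of -1.88 (SE 0.07, adjusted p = 1.23e-14). HMGCS1, the synthase that makes HMG-CoA, stood at 3343, 3207 and 2884 in DMSO and at 865, 884 and 878 in PhenDC3. Its log2 fold change was -1.84 (SE 0.07, adjusted p = 9.96e-15), which placed it in the lowest 0.758% of tested genes. The PhenDC3 libraries lay far below the controls for both genes and hardly differed from each other.

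The final enzymes of the stage, FDPS and FDFT1, also fell. FDPS, which makes farnesyl diphosphate, was at 1709, 1772 and 1845 normalized counts in DMSO and at 496, 508 and 501 in PhenDC3 (log2 -1.82, SE 0.07, limma adjusted p = 1.23e-14). FDFT1, squalene synthase, the step that commits carbon to sterols, was at 3571, 3382 and 3453 in DMSO and at 982, 972 and 962 in PhenDC3 (log2 -1.83, SE 0.06, limma adjusted p = 2.34e-15). The 95% intervals of the log2 fold changes of ACAT2, HMGCS1, FDPS and FDFT1 overlapped one another, between -2.02 and -1.68. Some of these genes share exonic bases with genes on the opposite strand in GENCODE 29, so that without strand their reads could be mixed. FDPS shares 18.6% with RUSC1-AS1 (159 normalized counts in DMSO, log2 fold change -1.28). ACAT2 shares 9.23% with TCP1 (4504 normalized counts in DMSO, log2 fold change -0.38), and 33.9% and 26.5% with genes not analysed here.

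The enzymes between them were less uniform. PMVK, phosphomevalonate kinase, fell to 0.337 of its DMSO level and MVD, mevalonate diphosphate decarboxylase, to 0.406. IDI1, the isomerase that readies isopentenyl diphosphate for chain building, was at 2300, 2246 and 2332 normalized counts in DMSO and 1165, 1233 and 1174 in PhenDC3, or 0.519. Mevalonate kinase, MVK, moved least, from 381, 367 and 428 to 311, 290 and 289 (log2 -0.40, SE 0.09, limma adjusted p = 0.000653). Its groups still did not overlap, but its interval, -0.58 to -0.21, lay outside that of each of the other 7 genes of the stage. MVK is transcribed head to head with MMAB, a cobalamin enzyme gene also known as an SREBP target, their RefSeq start sites lying 290 bases apart. In GENCODE 29 they share 306 exonic bases on opposite strands, 4.72% of those of MVK. MMAB fell further, to 0.420 of its DMSO level (log2 -1.24, limma adjusted p = 3.43e-09). The ratio of MVK to MMAB reads within a library, which does not depend on the size factor, was 1.24, 1.25 and 1.22 in DMSO and 2.16, 2.24 and 2.32 in PhenDC3. It was higher in 3 of 3 PhenDC3 libraries (exact permutation test, two-sided p = 0.10, the smallest that 3 against 3 libraries allow, and 0.133 after adjustment over 4 such ratios).

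After squalene, 9 of 10 genes were lower and TM7SF2 was higher. SQLE, squalene epoxidase, a control point of the pathway, was at 1832, 1805 and 1653 normalized counts in DMSO and 586, 591 and 577 in PhenDC3 (log2 -1.59, SE 0.07, limma adjusted p = 1.24e-13). MSMO1, the methylsterol oxidase that begins removal of the C4 methyl groups, was at 2599, 2451 and 2374 in DMSO and 761, 837 and 744 in PhenDC3 (log2 -1.66, SE 0.07, limma adjusted p = 5.96e-14). HSD17B7, the ketoreductase of the same demethylation, fell to 0.327 of its DMSO level from a low base of 177 ± 11.1 (SD, n = 3). For these 3 genes treated cells held between 0.315 and 0.332 of the control level, close to the 0.337 of PMVK.

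The other falls after squalene were milder. NSDHL, the decarboxylating dehydrogenase of C4 demethylation, fell to 0.521 of its DMSO level, EBP, the isomerase, to 0.545, and SC5D, the C5 desaturase, to 0.490. DHCR7, which carries out the closing reduction to cholesterol, was at 2189, 2101 and 2116 normalized counts in DMSO and 1120, 960 and 1043 in PhenDC3, a log2 fold change of -1.04 (SE 0.07). LSS, lanosterol synthase, which closes the sterol rings, fell to 0.573. CYP51A1, the lanosterol demethylase, was at 124, 115 and 122 in DMSO and 65.1, 55.1 and 85.3 in PhenDC3 (log2 -0.83, SE 0.15, limma adjusted p = 9.54e-05). Its level is uncertain, since 79.4% of its exonic bases in GENCODE 29 are shared with another annotated gene on the same strand, and no source used here says how the counting treated such reads.

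TM7SF2, a sterol C14 reductase, stood alone in this stage. It was at 39.7, 47.9 and 55.2 normalized counts in the DMSO libraries and 71.0, 70.0 and 90.5 in the PhenDC3 libraries, so the groups did not overlap. The log2 fold change was 0.69 (SE 0.17, limma adjusted p = 0.00164). Per kilobase of annotated exon it was the least abundant member in DMSO, below CYP51A1 at 33.6 normalized counts and far below MSMO1 at 856. Its neighbour VPS51, on the same strand with 16 shared exonic bases, was also higher (log2 0.36, limma adjusted p = 0.00247), and what part shared or read-through transcripts had in the value of TM7SF2 was not tested.

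**Figure D3:**
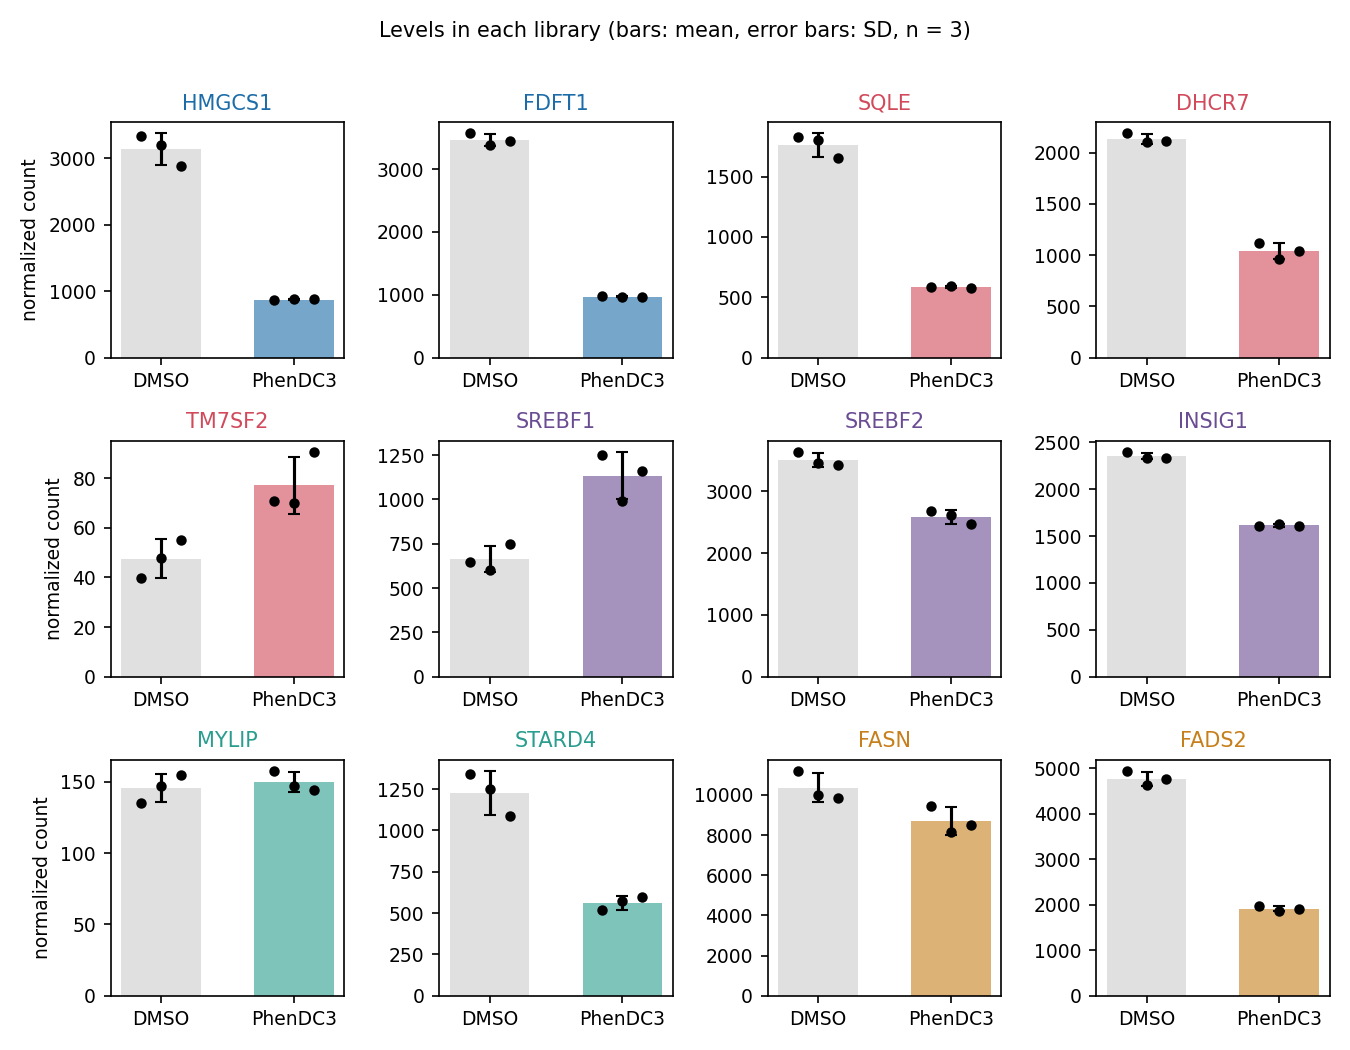
Normalized counts of 12 of the genes in each library, on linear axes that start at 0. Bars are the mean of 3 libraries, error bars the SD and points the libraries, with title colours by step. PhenDC3 libraries lie well below DMSO for HMGCS1, FDFT1 and SQLE, above DMSO for SREBF1 and TM7SF2, and overlap with DMSO for MYLIP.

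The SREBP genes themselves parted. SREBF1 was at 649, 603 and 746 normalized counts in DMSO and 1251, 991 and 1161 in PhenDC3, a log2 fold change of 0.77 (SE 0.09, limma adjusted p = 3.45e-07). SREBF2 was at 3633, 3467 and 3428 in DMSO and 2688, 2614 and 2465 in PhenDC3, a log2 fold change of -0.44 (SE 0.06, limma adjusted p = 2.91e-06). Neither pair of groups overlapped, and the 95% intervals, 0.58 to 0.95 and -0.56 to -0.31, lay on opposite sides of 0. Reads of SREBF1 per read of SREBF2 were 0.179, 0.174 and 0.218 in DMSO and 0.465, 0.379 and 0.471 in PhenDC3, a log2 difference of 1.21 (exact permutation test, two-sided p = 0.10, and 0.133 after adjustment). The table counts whole genes, so the SREBP-1a and SREBP-1c transcripts of SREBF1 are not separated. In GENCODE 29, 6.92% of SREBF1's exonic bases are shared with RAI1 on the opposite strand, which was at 682 normalized counts in DMSO and 910 in PhenDC3 (log2 0.42, limma adjusted p = 8.34e-05). No source used here says whether reads were counted by strand.

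Transcripts of the sterol-sensing proteins SCAP, INSIG1 and INSIG2 were lower. SCAP fell to 0.716 of its DMSO level, from 1085 ± 50.7 to 777 ± 51.4 normalized counts (SD, n = 3). INSIG1, itself a target of SREBP, was at 2396, 2335 and 2336 in DMSO and 1606, 1629 and 1609 in PhenDC3 (log2 -0.54, SE 0.06, limma adjusted p = 1.32e-07). INSIG2, which is not under the same feedback, fell to 0.663 (log2 -0.60, SE 0.09, limma adjusted p = 1.1e-05). The libraries of a group were close for INSIG1 and the groups were well apart, yet its interval, -0.67 to -0.42, stayed above those of HMGCS1 and SQLE, at -1.98 to -1.70 and -1.73 to -1.45. The ratio of INSIG1 to INSIG2 reads was 5.31 to 5.64 in DMSO and 5.11 to 6.31 in PhenDC3, and the groups overlapped (exact permutation test, two-sided p = 0.80, also after adjustment).

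The genes of sterol uptake and transport on the list divided. STARD4, a carrier that moves cholesterol between membranes and a known SREBP-2 target, was at 1343, 1252 and 1084 normalized counts in DMSO and 516, 575 and 598 in PhenDC3 (log2 -1.12, SE 0.08, limma adjusted p = 5.31e-10). MYLIP, the ubiquitin ligase also called IDOL that marks lipoprotein receptors for breakdown under control of LXR, was at 135, 147 and 154 in DMSO and 157, 147 and 144 in PhenDC3. These values overlapped, with a log2 fold change of 0.04 and a 95% interval of -0.19 to 0.27 (limma adjusted p = 0.77).

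Fatty acid synthesis genes were lower in 9 of 9 cases, but over a wide range. In this arm the desaturases and elongases fell most. FADS2, the delta-6 desaturase, was at 4937, 4629 and 4760 normalized counts in DMSO and 1972, 1853 and 1906 in PhenDC3 (log2 -1.32, SE 0.06, limma adjusted p = 2.48e-13). FADS1, the delta-5 desaturase encoded next to it, was at 4712, 4551 and 4166 in DMSO and 2400, 2397 and 2262 in PhenDC3 (log2 -0.93, SE 0.06, limma adjusted p = 1.2e-10). Both desaturases were clearly lower in every treated library, and the interval of FADS2, -1.44 to -1.20, lay below that of FADS1, -1.06 to -0.80. The number of FADS1 reads per FADS2 read was 0.954, 0.983 and 0.875 in DMSO and 1.22, 1.29 and 1.19 in PhenDC3. Its change gave the smallest p that 3 against 3 libraries allow (exact permutation test, two-sided p = 0.10, and 0.133 after adjustment). FADS1 and FADS2 share 490 exonic bases on opposite strands, under 5% of either. FADS2 also shares 49 exonic bases on the same strand with FEN1. FEN1 was at 2383 normalized counts in DMSO and was lower with PhenDC3 (log2 -1.02, limma adjusted p = 7.54e-11). What part shared reads had in the values of FADS2 was not tested.

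ELOVL5, which lengthens polyunsaturated fatty acids, fell to 0.483 of its DMSO level and ELOVL6, which lengthens saturated ones, to 0.505. SCD, the desaturase that makes oleate, was at 9453, 8906 and 7689 normalized counts in DMSO and 5671, 5672 and 5644 in PhenDC3 (log2 -0.61, SE 0.07, limma adjusted p = 1.6e-07). Reads assigned to pseudogenes with a row in the table were few beside the levels of SCD and FDPS. They came to 882 in all 6 libraries for SCD and 328 for FDPS. For HSD17B7, at 188, they were more sizeable against its lower level. For CYP51A1, at 634, they were about as many as the reads of the gene itself. How these pseudogene reads differed between the groups is not described here. SCD also had the highest level per kilobase of annotated exon of all members in both groups, 1619 in DMSO and 1056 in PhenDC3.

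The smaller falls were those of LPIN1, FASN, ACLY and ACSS2. ACLY, which splits citrate to acetyl-CoA, fell to 0.746 of its DMSO level, and ACSS2, which activates acetate, to 0.690. FASN, fatty acid synthase, was at 11181, 10008 and 9870 normalized counts in DMSO and 9474, 8143 and 8492 in PhenDC3 (log2 -0.25, SE 0.07, limma adjusted p = 0.00297). LPIN1, the phosphatidate phosphatase that feeds triglyceride synthesis, was at 1471, 1465 and 1250 in DMSO and 1220, 1227 and 1169 in PhenDC3 (log2 -0.21, SE 0.07, limma adjusted p = 0.0179). For both genes the groups came close to touching, the lowest DMSO library standing just above the highest PhenDC3 library. The call for FASN was lost without a variance trend (adjusted p = 0.0631). That for LPIN1 was lost without the trend (adjusted p = 0.0958), in thinned reads (adjusted p = 0.0735), and without DMSO replicate 1, DMSO replicate 2 or PhenDC3 replicate 3 (adjusted p = 0.0868 to 0.0956).

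The difference between the arms was also seen within libraries. Summed reads of the mevalonate genes per read of the fatty acid genes were 0.342, 0.352 and 0.381 in DMSO and 0.176, 0.187 and 0.186 in PhenDC3. For the genes after squalene the values were 0.258, 0.263 and 0.276 in DMSO and 0.174, 0.177 and 0.176 in PhenDC3. Both ratios were lower in every PhenDC3 library than in any DMSO library, and neither depends on the size factors. SCD, FASN and ACLY supply most of the fatty acid reads.

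Genes around the pathway moved in several directions, and their counts are to be read against the 30.4% of all tested genes that were lower and the 29.2% that were higher. Of 10 other SREBP targets tested, 7 were lower and none higher, with a median log2 fold change of -0.53. TMEM97, a sterol-regulated membrane protein, fell from 561 to 139 normalized counts (log2 -2.02, limma adjusted p = 2.78e-12), a larger fold change than that of any member. ERG28, a scaffold of the C4 demethylation complex, fell to 0.427 of its DMSO level. In the list for SREBP cleavage and turnover, 3 of 7 were lower and 1, SPRING1, higher, with a median of 0.04, so that the share called was not above the 59.6% of all tested genes. RNF145, a sterol-responsive ubiquitin ligase, fell to 0.506, and the proteases MBTPS1 and MBTPS2, which release the active fragment, to 0.752 and 0.782. SPRING1 (log2 0.28, limma adjusted p = 0.00618), a cofactor of the first protease, was named after its value was seen.

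Of 7 genes of sterol sorting and esterification, 5 were higher (against 29.2% of all tested genes) and 1, LIPA, was lower (against 30.4%), with a median of 0.28. NPC1, which exports cholesterol from lysosomes, rose from 1816 to 5854 normalized counts (log2 1.69, limma adjusted p = 1.44e-14). OSBP, a sterol carrier at contacts between endoplasmic reticulum and Golgi, rose 1.63-fold, and SOAT1, which esterifies cholesterol, 1.36-fold. LIPA, the lysosomal esterase, fell to 0.760 and was named after its value was seen. Among LXR factors and targets, 1 of 4 was higher (NR1H2, 1.16-fold, its groups overlapping) and 1 lower (NR1H3, to 0.590), with a median of 0.04. LXR is the nuclear receptor that senses oxysterols.

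In the branch that leads from farnesyl diphosphate to other isoprenoids, 4 of 9 genes were higher (against 29.2% of all tested genes) and 5 lower (against 30.4%), with a median of -0.31. COQ2 and PDSS1, which serve ubiquinone synthesis, fell to 0.277 and 0.530 of their DMSO levels. The subunits of protein farnesyltransferase parted, FNTB falling to 0.497 and FNTA rising 1.42-fold (limma adjusted p = 1.41e-05). FNTA and the other higher genes, GGPS1, DHDDS and NUS1, were named after their values were seen. Of the 9 fatty acid oxidation genes, 6 were lower (against 30.4% of all tested genes) and 1 higher (against 29.2%), with a median of -0.36. The higher gene, CPT1A, the carnitine transferase that admits fatty acids to mitochondria, rose 1.98-fold (log2 0.98, limma adjusted p = 8.03e-09), while HADHA and ACADM, enzymes of the oxidation cycle, fell to 0.695 and 0.687.

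**Figure D4:**
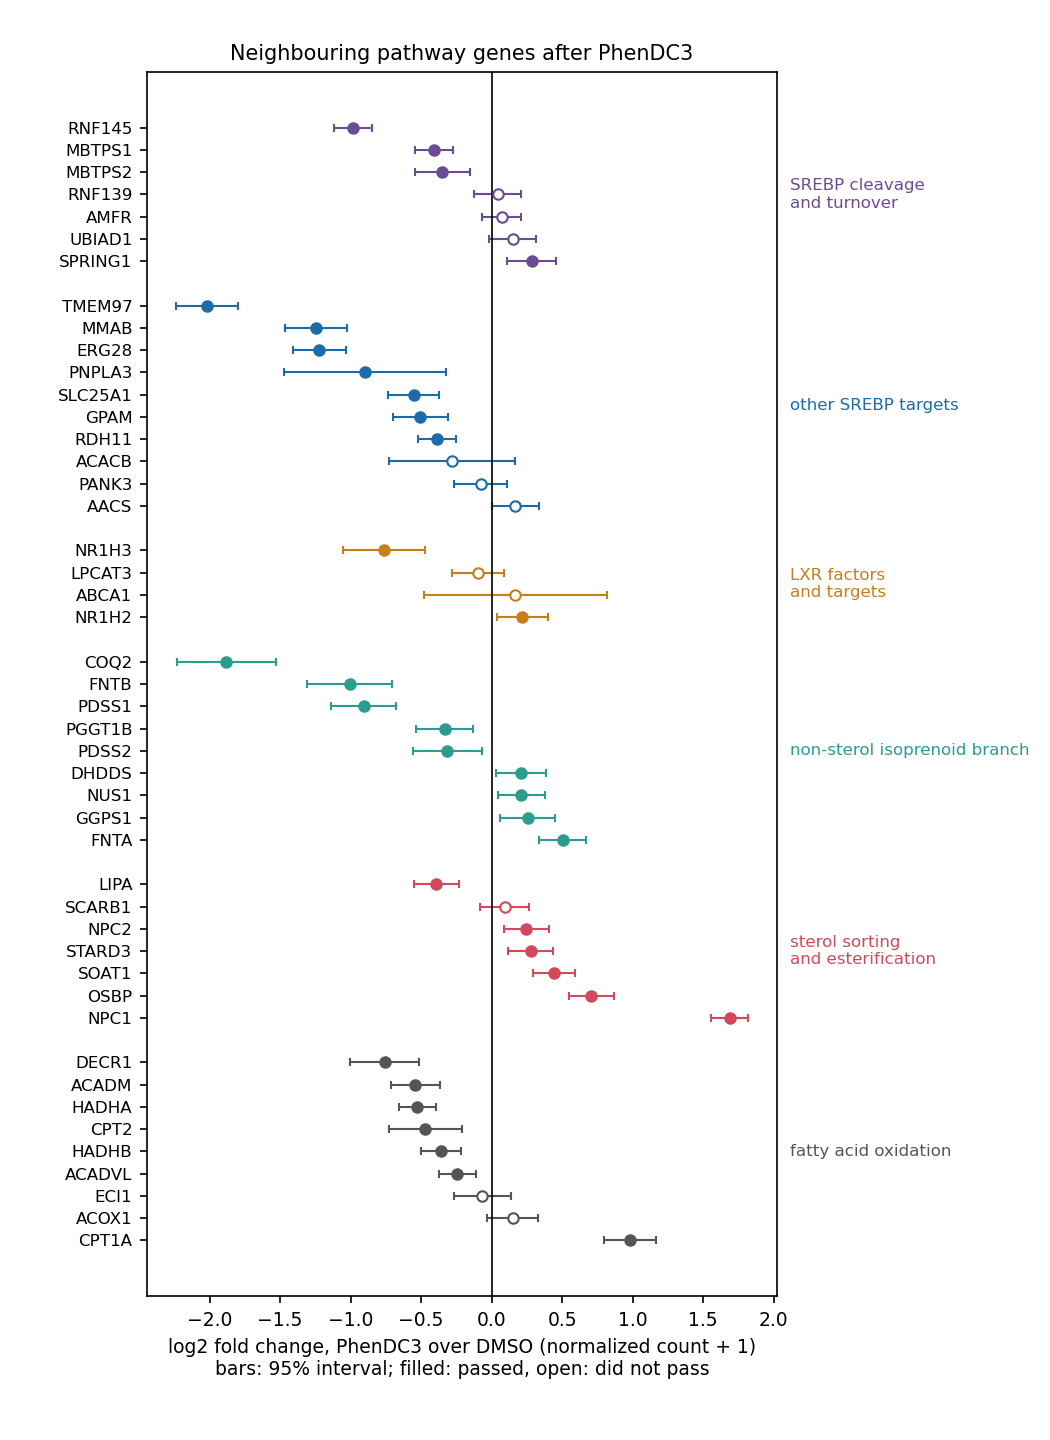
Log2 fold change of each tested gene of the 6 neighbouring lists, PhenDC3 over DMSO, with its 95% interval from limma. Filled points passed and open points did not. TMEM97 and COQ2 lie farthest to the left and NPC1, at 1.69, farthest to the right.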

How the data were processed

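Gene expression was measured in 6 HT-1080 libraries, grouped by their titles. Per the submitters' processing notes, the tools include STAR 2.7, TopHat2 2.0.11, featureCounts, DESeq2 1.18.1, Cuffdiff and Cufflinks 2.2.1, and the build is hg19, with no role or order given. No source used here gives the annotation or strand setting. The deposited per-library values are a signal: counts per gene, scaled by the authors with a single factor in each library, which the values themselves reveal. All of them (100%) are whole multiples of the smallest value above 0 (relative tolerance 1e-06), so whole reads were recovered. The deposited table also gives the authors' log2 fold change and adjusted p-value, missing for 1332 genes.

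limma 3.58.1 (R 4.3.3) was run on log2(value + 1) with a variance trend, for genes with a mean of 5 or more, calling genes at a Benjamini-Hochberg adjusted p under 0.05. The pseudocount shrinks fold changes of low genes. Alternatives included edgeR 4.0.16 and DESeq2 1.42.0 on recovered reads. The tests were also run on simulated reads in which few genes changed, unlike here, which does not show how they perform on these data. Members, lists and tests were chosen with earlier results of these data known. All members are described. Of each other list the called genes with the smallest adjusted p, at most 3, are named. COL1A1 and those said to be named after their values were seen were added. GENCODE 29 (GRCh38) gave exon lengths and overlaps, and RefSeq promoters their sequences. Python 3.11.15 and pandas 2.3.3 made the tables.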

Additional observations from a re-analysis of the deposited data

How the results depend on the processing

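Across 19 other settings the number of members called higher was 2 throughout, and the number called lower was 29 to 31. Leaving out 1 library gave 30 to 31 lower members and 8937 to 9646 called genes, against 9818 with all libraries. The direction of every called member was kept in each setting run, and the calls that were lost were those of FASN and LPIN1, including LPIN1 at an adjusted p under 0.01. MYLIP, not called in any setting, ran from -0.01 to 0.084 as 1 library was left out, and changed sign without DMSO replicate 1 (log2 -0.01, limma adjusted p = 0.955) and with scaling to total reads (log2 -0.12, limma adjusted p = 0.343). Scaling to total reads moved the median of all genes to -0.18 and the calls to 3585 higher and 6636 lower, against 4806 and 5012, while the median of the members became -1.10. With reads outside the mitochondrial genome as the scale, that median was -0.92. Residuals of same-numbered libraries correlated at 0.008, 0.071 and 0.027, which does not show that the numbers pair them, and with the replicate number as a block 31 members were lower, 2 higher and 10155 genes called. By the authors' deposited table, 31 members were lower and 2 higher. The depth limits the low members most, PMVK, TM7SF2 and CYP51A1 among them.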
